A study of Drosophila melanogaster with 3 samples.

Results

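Binding sites of Achaete (Ac) that fall where 2 protein-coding genes start back to back are described here. They were the peaks of the authors' optimal list, on the dm6 build, whose summit lay within 500 bp of an annotated protein-coding start and had both a plus-strand and a minus-strand start, of 2 different genes, within 1000 bp. The rule selected 349 of 2756 peaks, or 12.7%. Another 677 peaks lay within 500 bp of a start without meeting the second condition and are called one-direction peaks, and the remaining 1730 had no protein-coding start within 500 bp. The 349 divergent peaks thus made up 34.0% of the 1026 promoter peaks.

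The material was whole embryos of pooled sexes, aged 0 to 8 h, of a transgenic Drosophila line that stably carries Ac with green fluorescent protein (eGFP) at its C terminus. Chromatin sonicated to fragments of 200 to 800 bp was immunoprecipitated with an antibody against GFP and sequenced (ChIP-seq). The study has 3 biological replicates of this 1 group and no second condition, and since the labels do not tell separate collections from repeats of 1 collection, differences between replicates may be technical in part. The deposited lists hold regions and no read counts, so the depth of each replicate is unknown, and whole embryos mix cells with and without Ac.

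Ac is a basic helix-loop-helix protein of the achaete-scute complex that, with its partner Daughterless (Da), binds E-box sequences and gives ectodermal cells the potential to become neural precursors. In Drosophila many genes lie head to head with a neighbour, and a short stretch of DNA between the starts can hold promoters for both directions. Such promoters often serve genes used in all cells, and they frequently carry the DNA replication-related element (DRE), bound by the factor DREF, or Motif 1, bound by M1BP, while GAGA repeats, bound by the GAGA factor, and TATA boxes are better known from developmentally regulated promoters.

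The whole stretch between the starts is shown for 6 pairs, read 5′ to 3′ on the plus strand of the release 6 genome (RefSeq), from the base after the minus-strand start to the base before the plus-strand start; none of these bases lies in an annotated exon of the pair. Capitals mark the Ac/Sc-Da E-box (GCAGCTG or GCAGGTG), the DRE (TATCGATA), the core of the BEAF-32 site (CGATA, also inside the DRE) and the core of Motif 1 (GGTCACAC), on either strand. Art3/mRpS10 (chr3R:15229409-15229664) and Tcs5/CHMP2B (chr3L:5139396-5139618) are shown as 2 of the strongest divergent peaks, with no E-box of the Ac/Sc-Da kind between the starts.
Art3/mRpS10: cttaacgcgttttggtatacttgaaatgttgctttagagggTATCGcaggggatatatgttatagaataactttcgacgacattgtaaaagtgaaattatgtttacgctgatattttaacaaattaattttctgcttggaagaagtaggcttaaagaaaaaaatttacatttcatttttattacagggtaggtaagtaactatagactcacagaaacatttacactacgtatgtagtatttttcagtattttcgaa
Tcs5/CHMP2B: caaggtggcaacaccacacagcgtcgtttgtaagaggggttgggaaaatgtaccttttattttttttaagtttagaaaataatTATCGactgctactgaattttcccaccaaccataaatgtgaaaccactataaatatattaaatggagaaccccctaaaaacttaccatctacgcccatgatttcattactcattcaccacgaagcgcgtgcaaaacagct

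The stretch between oxt and CG13807 (chr3L:2262665-2262918) is shown because its peak window held 2 Ac/Sc-Da E-boxes, both near the plus-strand start of CG13807.
oxt/CG13807: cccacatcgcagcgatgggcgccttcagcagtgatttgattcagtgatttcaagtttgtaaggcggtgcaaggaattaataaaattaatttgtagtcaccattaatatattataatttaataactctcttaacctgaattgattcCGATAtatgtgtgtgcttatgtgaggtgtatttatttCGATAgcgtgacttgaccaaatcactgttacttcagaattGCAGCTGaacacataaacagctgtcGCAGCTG

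Atat/Shc (chr3L:9426759-9427009) was the highest-ranked divergent peak with a DRE in its window, and RpL34a/Trmt61 (chr3R:26059268-26059495) held 2 DREs. CG13690/RpLP1 (chr2L:419653-419951) shows a ribosomal protein promoter with the Motif 1 core next to its start.
Atat/Shc: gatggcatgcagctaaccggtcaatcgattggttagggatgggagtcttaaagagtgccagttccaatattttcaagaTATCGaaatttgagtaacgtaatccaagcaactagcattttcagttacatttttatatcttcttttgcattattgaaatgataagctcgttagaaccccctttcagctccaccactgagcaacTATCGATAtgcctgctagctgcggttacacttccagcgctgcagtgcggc
RpL34a/Trmt61: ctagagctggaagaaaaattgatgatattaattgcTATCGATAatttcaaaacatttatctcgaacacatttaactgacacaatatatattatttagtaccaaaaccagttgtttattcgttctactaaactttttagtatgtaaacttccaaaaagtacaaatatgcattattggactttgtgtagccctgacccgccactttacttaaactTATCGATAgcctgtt
CG13690/RpLP1: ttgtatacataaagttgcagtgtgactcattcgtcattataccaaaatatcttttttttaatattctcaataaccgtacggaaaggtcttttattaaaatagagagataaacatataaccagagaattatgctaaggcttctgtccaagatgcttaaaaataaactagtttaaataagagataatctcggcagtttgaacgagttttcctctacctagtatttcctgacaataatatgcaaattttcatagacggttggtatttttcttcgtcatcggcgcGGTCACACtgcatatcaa

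The 349 peaks lay at 340 distinct pairs of 678 genes. A pair with 3 summits was Pgk/Bacc, and 7 pairs had 2 summits, among them RpS25/CG4820 and msn/RpL8. Starts were head to head, with the minus-strand start at the lower coordinate, at 338 of the 349 peaks (96.8%). At the other 11 the transcripts overlapped by 26 to 826 bp, as at Pgk/Bacc and at lawc/Trf2. The gap between head-to-head starts had a median of 332 bp, from 2 bp at dpa/didum and 8 bp at SerRS/CG17260 to 1191 bp at Amun/prtp, 1229 bp at CG10527/Treh and 1382 bp at CG31807/grp. Both starts lay within 500 bp of the summit at 253 of 349 peaks and within 200 bp at 132. By annotation, 169 summits were intergenic, 116 in a 5′ UTR, 59 in an intron, 4 in a coding exon and 1 in a 3′ UTR.

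Divergent peaks were spread over the large chromosome arms, with 73 on 2L, 68 on 2R, 81 on 3L, 91 on 3R and 36 on X. They were 36 of the 151 promoter peaks on X (23.8%, exact 95% binomial interval 17.3% to 31.4%) and 81 of 213 on 3L (38.0%, interval 31.5% to 44.9%). All such intervals cover counting error only. None of the 9 promoter peaks on chromosome 4 was divergent, which allows a share of up to 33.6% by the exact interval. The shares on 2L, 2R and 3R were 35.6%, 34.9% and 36.0%. How often genes lie head to head on each arm was not counted, so its part in these shares was not tested.

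Summits mostly lay in the stretch between the starts. Of the 338 head-to-head peaks, 229 (67.8%) had the summit between the starts, 59 had it past the minus-strand start and 50 past the plus-strand start. The summit lay between the starts in 14 of 49 pairs at most 150 bp apart, where there is little room for it, and in 43 of 48 pairs 151 to 250 bp apart. In pairs 501 to 1000 bp apart it lay between them in 48 of 82, at a median of 312 bp from the midpoint and 87.5 bp from the nearer start. In the 14 pairs over 1000 bp apart it lay between them by the rule, since a summit past either start would be over 1000 bp from the other. Medians there were 278 bp from the midpoint and 282.5 bp from the nearer start. In narrower pairs too the rule limits how far past a start a summit can lie. In pairs 151 to 250 bp apart the median distance from the midpoint was 32.2 bp. Over all 349 peaks the summit lay at a median of 66 bp upstream of the nearest start, against 124 bp for one-direction peaks. A summit between head-to-head starts cannot lie farther upstream of its nearest start than the midpoint, so part of this difference is built in.

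**Figure D1:**
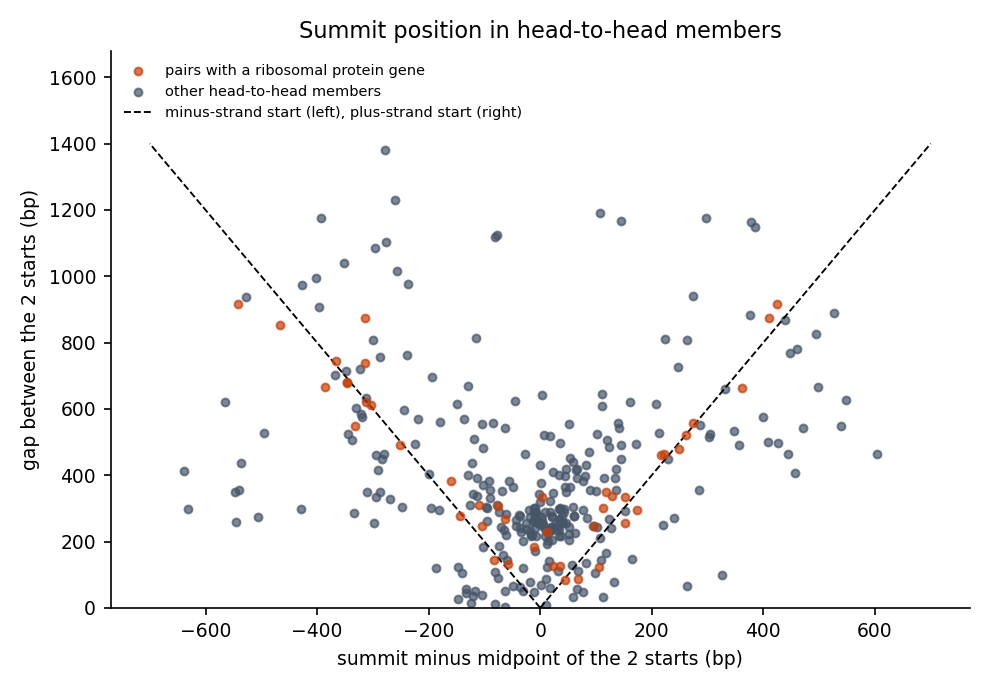
Summit position of the 338 head-to-head divergent peaks: the horizontal axis is the distance in bp of the summit from the midpoint of the starts, the vertical axis the gap between the starts in bp, and the dashed lines are the starts. Points between the lines are the 229 summits between the starts, and the 43 peaks at pairs with a ribosomal protein gene mostly run along the lines.

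The replicates differed in where the summits of their own highest-ranked regions lay. For each replicate, its 2756 highest-ranked regions, as many as the optimal list holds, are called its top regions. Of the divergent peaks among the top regions, 79.5% had the summit between head-to-head starts in replicate 1, 57.4% in replicate 2 and 56.6% in replicate 3 (64.5% ± 13.04, SD, n = 3). These are different regions in each replicate. At counterparts of the same head-to-head peaks the spread was narrower in each class of gap. The shares in replicates 1, 2 and 3 were 29.2%, 27.1% and 22.9% for gaps of 1 to 150 bp. They were 85.6%, 82.0% and 76.3% for 151 to 350 bp, and 77.3%, 63.0% and 67.9% for 351 to 2000 bp. The median position upstream of the nearest start was 77.5 bp in replicate 1, 42.5 bp in replicate 2 and 43 bp in replicate 3. One-direction peaks shared that shift, with medians of 155, 110 and 112 bp. The share of promoter regions that were divergent was 38.3%, 31.1% and 33.9% in replicates 1, 2 and 3 (34.4% ± 3.65, SD, n = 3).

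Divergent peaks occurred over almost the whole range of ranks, from 9 to 2746. By the authors' signal value, whose scale is not stated and which serves here only to rank, the median rank in the optimal list was 1339 for divergent peaks and 1450 for one-direction peaks. They were 46 of the 300 strongest peaks and 137 of the 1000 strongest. Within the top regions of each replicate the median rank of divergent minus one-direction peaks was −146, −27.5 and −48 in replicates 1, 2 and 3, so divergent peaks stood higher in all 3. The exact sign-flip permutation test over the 3 replicates, two-sided, gave p = 0.25, which is the smallest p that 3 replicates allow, and 0.3 after Benjamini-Hochberg adjustment over 12 comparisons, so no comparison here can reach significance. The difference in median rank in the optimal list was −111. It was 68 without replicate 2, that is among the optimal peaks that recurred among the top regions of replicates 1 and 3, and −18 without replicate 3, −119 without replicate 1 and −33 without ribosomal protein promoters.

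The strongest divergent peak was at Art3/mRpS10, between a protein arginine methyltransferase gene and a gene for a mitochondrial ribosomal protein. It ranked 9 in the optimal list and 4, 20 and 14 in replicates 1, 2 and 3, with its summit 132 bp from the start of Art3 and 125 bp from that of mRpS10, in the first sequence above. Chro/Ssl1, genes for the chromatin protein Chromator and for a TFIIH subunit, ranked 12 and stood at 8, 15 and 10 in the replicates. Ugalt/eIF2Bbeta, genes for a UDP-galactose transporter and for a subunit of the translation factor eIF2B, ranked 17, and its summit lay 37 bp from the start of Ugalt and 682 bp from that of eIF2Bbeta. All of these were among the strongest in every replicate.

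Tcs5/CHMP2B, which includes the gene of an ESCRT-III subunit, followed at rank 23, and mRpS23/CenG1A at rank 30. The other 10 of the 15 highest-ranked were Lon/PIG-F, RpS27/Nup37, CG5611/Mtl, CG11309/CG7632, PNPase/Gprk2, Fbw5/CG9147, Stt3A/bves, mRpL41/CG8079, Pdrg1/Pal1 and Ns2/POSH, at ranks 41 to 82. All 15 were in the top regions of all 3 replicates, and 11 of 15 ranked higher in replicate 1 than in both other replicates. The summit lay between the starts in 10 of the 15. None of the 15 windows held an Ac/Sc-Da E-box, a DRE or the Motif 1 core within 100 bp of the summit. Over all 349 divergent windows these shares were only 12.9%, 7.16% and 4.87%, so 15 windows are few to judge by. The BEAF-32 core was in 5 of the 15 and any E-box (CANNTG) in 7, against 32.1% and 62.8% of all divergent windows.

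**Figure D2:**
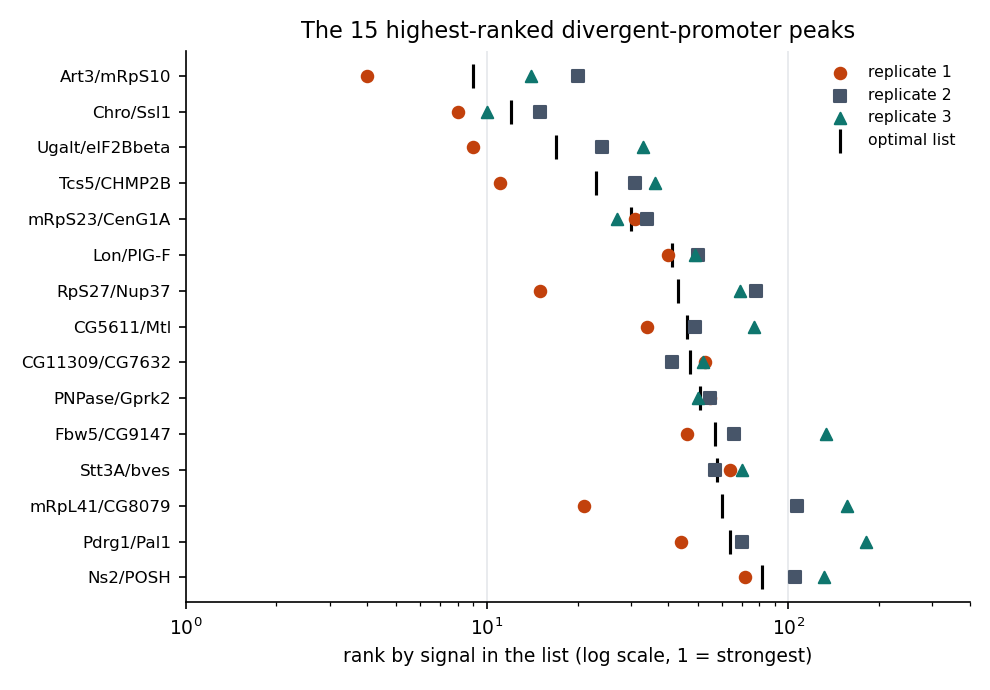
Ranks by signal of the 15 highest-ranked divergent peaks, on a log axis where 1 is the strongest region: symbols are the replicate lists and the black tick is the optimal list. All 15 stayed in the top regions of each replicate, and 11 stood highest in replicate 1.

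Among the 100 highest-ranked divergent peaks the replicates agreed most closely at CG43116/E(spl)mdelta-HLH, with ranks of 144, 145 and 140 (143 ± 2.65, SD, n = 3), then at PNPase/Gprk2 with 55, 55 and 50, and at mRpS23/CenG1A with 31, 34 and 27. The widest spread was at DUBAI/Tmem18, with 170, 811 and 3286, at Amun/prtp with 1107, 300 and 3099, and at Kap-alpha3/Son with 101, 966 and 2015. DUBAI/Tmem18 and Kap-alpha3/Son stood highest in replicate 1 and lowest in replicate 3.

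Not every divergent peak recurred. A counterpart within 150 bp was in the top regions of all 3 replicates for 173 of 349 peaks (49.6%), of 2 for 102, of 1 for 68 and of none for 6, against 47.0% in all 3 for one-direction peaks. The 6 were at CG42260/blw, CG18178/CG14174, rho-7/CG8298, mura/RnpS1, CG14440/CG14441 and tum/Uba3. By replicate, 80.2%, 77.1% and 69.3% of divergent peaks recurred, against 68.2%, 86.6% and 70.5% of one-direction peaks. The difference was 11.99 percentage points in replicate 1, −9.48 in replicate 2 and −1.12 in replicate 3 (0.463 ± 10.8, SD, n = 3), with p = 1 by the exact sign-flip permutation test. Replicate 1 alone thus favoured divergent peaks, and the mean of replicates 2 and 3 was −5.30 points. Presence in replicates 2 and 3 but not 1 was seen for 6.59% of divergent peaks and 15.8% of one-direction peaks.

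Seen from the genes, the share bound was larger for head-to-head neighbours than for other genes. Of 13968 protein-coding genes, 5052 had a neighbour starting head to head within 1000 bp. An own start lay within 500 bp of an optimal summit for 687 of those (13.6%), against 571 of the 8916 other genes (6.40%), where the share over all genes was 9.01%. The same shares were 14.8% and 5.88% in the top regions of replicate 1, 12.2% and 6.88% in replicate 2 and 13.04% and 6.15% in replicate 3. The difference was 7.05 ± 1.81 percentage points (SD, n = 3), positive in 3 of 3 replicates, with p = 0.25 by the exact sign-flip permutation test and 0.3 adjusted. One summit can serve both genes of a pair, and the measure uses the same start distance as the rule that chose the peaks, so part of the difference is built in. Counted per pair, 13.9% of head-to-head pairs had a summit within 500 bp of either start, against 12.8% for the summed share of 2 other genes. The same values were 14.7% and 11.8% in replicate 1, 12.3% and 13.8% in replicate 2 and 13.4% and 12.3% in replicate 3, so the sign differed between replicates. The pair share uses 1 start of each gene, those with the smallest gap, while other genes count by any annotated start. The 2 measures are thus unlike, and what 2 nearby starts alone would give was not tested. Among the optimal peaks with a counterpart in both other replicates, a smaller set, the difference was 3.44 points without replicate 1, 4.62 without replicate 2 and 4.77 without replicate 3, against 7.19 in the full list.

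Of 2667 head-to-head pairs, 372 had such an optimal summit, and 289 of these had both own starts within that distance. The bound share differed between classes of gap. It was 19.4% for the 542 pairs with a gap of 201 to 300 bp and 16.5% for gaps of 301 to 400 bp, against 10.5% for gaps of 1 to 100 bp, 9.24% for 101 to 200 bp and 10.4% for 801 to 1000 bp. The 201 to 300 bp class stood above the 101 to 200 bp class in each replicate, at 21.6%, 17.0% and 17.9% against 10.1%, 7.003% and 10.6%. The median gap was 302 bp in bound pairs and 301 bp in the others.

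**Figure D3:**
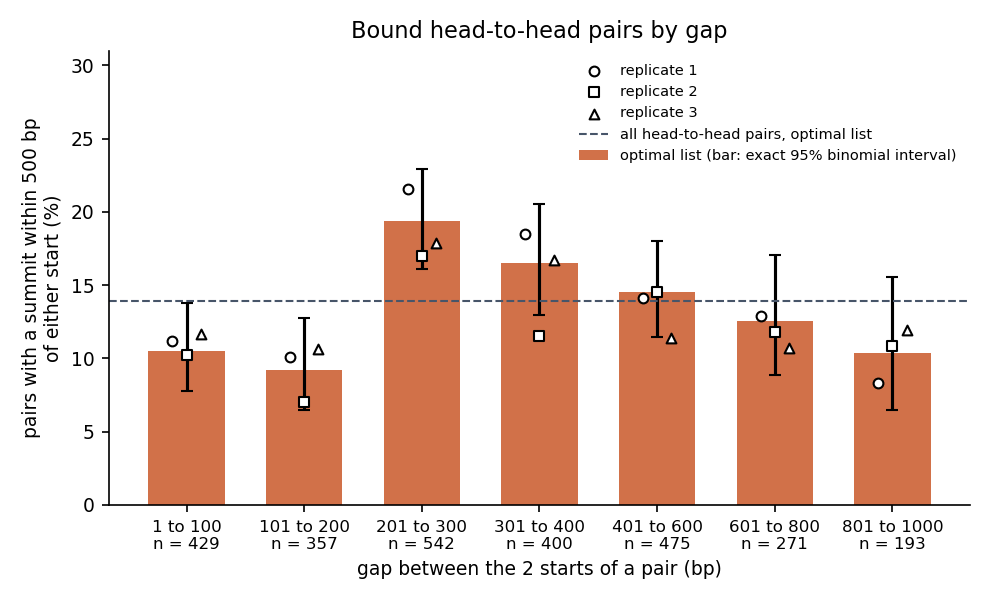
Share of head-to-head gene pairs with a summit within 500 bp of either start, in %, by the gap between the starts in bp: columns are the optimal list with exact 95% binomial intervals, symbols the 3 replicates and the dashed line all pairs. The classes 201 to 300 bp (19.4%) and 301 to 400 bp (16.5%) were the highest in the optimal list.

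Of the lists with 10 or more head-to-head genes, that of the cytoplasmic ribosomal proteins had the largest bound share. An own start lay near an optimal summit for 41 of their 55 head-to-head members (74.5%), against 13.6% of all head-to-head genes, and for 19 of the other 37 (51.4%). The counts of bound head-to-head members were 42, 42 and 38 in the top regions of replicates 1, 2 and 3. Of the 349 divergent peaks, 43 had such a gene, 40 genes in all. The list was taken by the names RpL and RpS, and so includes RpLP0-like, at rank 1619.

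RpS27, a small-subunit protein gene beside Nup37, stood highest at rank 43, with 15, 78 and 69 in the replicates. RpL7 beside Ripalpha ranked 105, with 54, 231 and 109. RpL14 ranked 238, with 56, 414 and 945. All of these stood highest in replicate 1.

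At these promoters the summit kept close to the ribosomal protein start. That start was nearer than the partner's at 38 of the 43 peaks, with a median distance of 30 bp, against 297 bp to the partner's start. It lay within 50 bp of the summit at 30 of 43 peaks, while the nearest start lay within 50 bp at 60 of the 306 other divergent peaks, whose median distance was 100.5 bp. The summit was downstream of the ribosomal protein start at 16 of 43. An Ac/Sc-Da E-box occurred in the window of only 1 of the 43, RpS16 beside CG4294, and of 44 of the other 306. A DRE occurred in 10 of 43, against 15 of 306, and the Motif 1 core in 7 of 43, against 10 of 306. The TATA box went the other way, in 6 of 43 against 125 of 306.

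Other gene groups used in all cells were bound in various measure. Of the translation factors, 7 of 27 head-to-head genes were bound (25.9%, interval 11.1% to 46.3%, against 13.6% of all; 5, 5 and 5 genes in the replicates), led by eIF4EHP, an mRNA cap-binding repressor of translation, at rank 111 (162, 116 and 123 in the replicates), by eIF1 at 329 and by eIF3a at 1126; eIF2Bbeta, 682 bp from its summit, was not among them. Of the mitochondrial ribosomal proteins, 8 of 58 were bound, a share (13.8%) near that of all head-to-head genes, with mRpS10 at rank 9, mRpS23 at 30, mRpL41 at 60 and mRpL23 at 142. Respiratory chain genes had 3 of 42, led by ND-ASHI at 731 and ND-51 at 1523, and tRNA synthetases with a 3-letter amino acid name 3 of 22, with IleRS at 871, AsnRS at 1678 and SerRS at 1744. GluProRS, outside that name rule, had a divergent peak at rank 1724. None of the 26 head-to-head proteasome subunit genes was bound, which allows a share of up to 13.2% by the exact interval, and the same count in replicates 1, 2 and 3 was 0, 0 and 1.

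Genes of chromatin and promoter proteins were among the bound ones. Of 10 head-to-head insulator and promoter factors, 5 were bound, 4 of them at divergent peaks. These were Chro at rank 12, Cp190, which encodes a protein shared by insulator complexes, at 266 (138, 517 and 210), M1BP, the gene of the Motif 1 factor, at 723 (509, 826 and 1238) and Dref, the gene of the DRE factor, at 754 (583, 884 and 880). Dref shared its peak with RpL13, and the summit lay 87 bp from the start of Dref and 3 bp from that of RpL13. Of the Polycomb and trithorax groups 4 of 13 were bound (30.8%), with E(z), the H3K27 methyltransferase, at rank 372, brm, the remodelling ATPase, at 629 and Sfmbt at 2269. Intervals were 18.7% to 81.3% for the first list and 9.09% to 61.4% for the second, against 13.6% of all head-to-head genes. General transcription factors, taken by the names Taf, TfII, Tbp and Trf and so without Ssl1, had 1 of 19, and the divergent peaks of that list were at Taf4 (1504) and Trf2 (2505). DNA replication and cell cycle genes had 3 of 20, close to that share, with dpa at 1639 and dup at 1873.

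**Figure D4:**
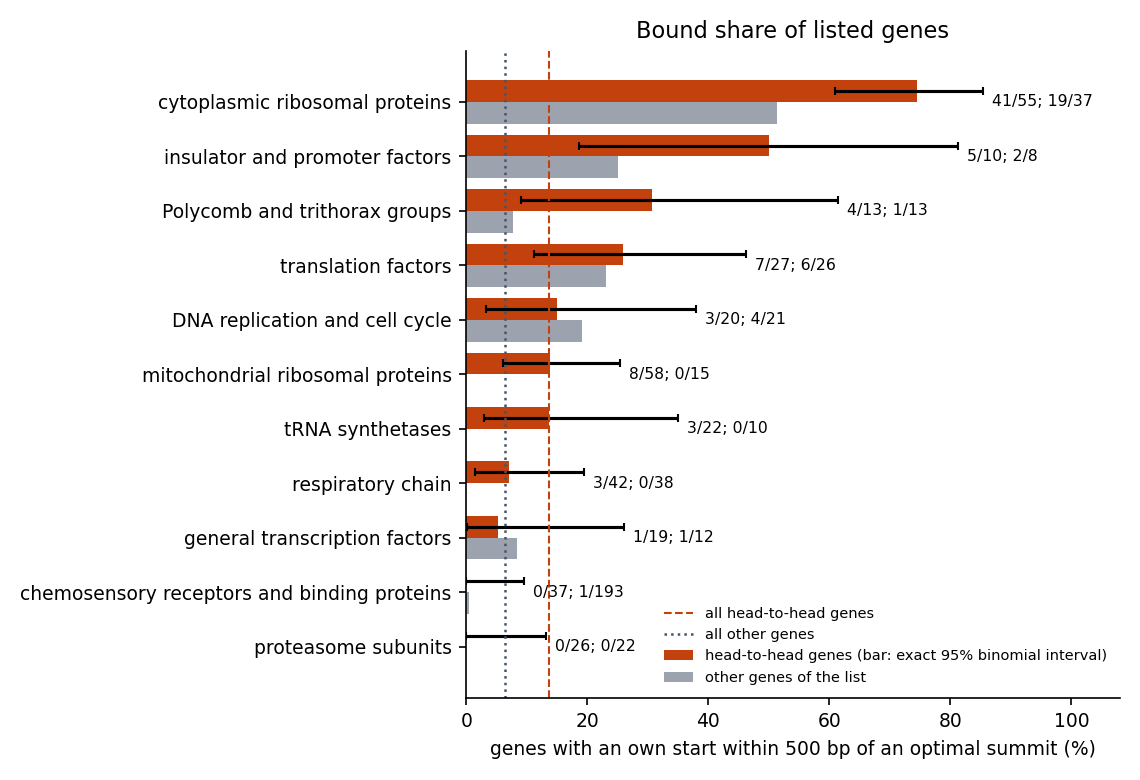
Share of the genes in each list with an own start within 500 bp of an optimal summit, in %, for head-to-head genes (upper bar, with exact 95% binomial interval) and the other genes of the list (lower bar); the counts stand beside the bars and the lines are all head-to-head and all other genes. Cytoplasmic ribosomal proteins reached 74.5% and 51.4%, and proteasome subunits 0 of 26 and 0 of 22.

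Few neural genes sit at divergent promoters. None of the 11 proneural genes and partners and only 1 of 13 genes of the Enhancer of split complex had a head-to-head neighbour within 1000 bp. That gene, E(spl)mdelta-HLH, codes for a repressor that acts in the Notch response, and it lies beside CG43116. Its peak ranked 129, with the summit 357 bp from its start, and its window held no Ac/Sc-Da E-box. The only head-to-head sensory organ precursor gene was neur, which was not bound in the optimal list but had a top region in replicates 1, 2 and 3. Of neuroblast genes 0 of 2 and of neuronal differentiation genes 1 of 4 were bound in the optimal list. That gene, nrv2, was not at a divergent peak and recurred in the top regions of no replicate. Neural genes without a head-to-head neighbour were often bound, against 6.40% of all such genes. They were 4 of 11 proneural genes and partners, 10 of 12 of the Enhancer of split complex and 11 of 19 sensory organ precursor genes. Neuroblast genes had 5 of 19 and neuronal differentiation genes 1 of 12.

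Of the Notch pathway, 3 of 9 head-to-head genes were bound in the optimal list and 4, 4 and 4 in the replicates, with an interval of 7.49% to 70.1% that covers the 13.6% of all head-to-head genes. Su(H), the DNA-binding effector, shares a divergent promoter with CIAPIN1, and its peak ranked 1100, with 1279, 1427 and 1242 in the replicates and 1 Ac/Sc-Da E-box. The peak at aph-1, a gamma-secretase subunit gene beside Snx21, ranked 1494, with 1339 and 1356 in replicates 1 and 2 and no counterpart in replicate 3. The peak at mam, the gene of the Notch coactivator, beside RN-tre, ranked 1717, with 1634, 2724 and 2085. Of 37 head-to-head chemosensory genes none was bound, and the divergent peak that named one, CG12402/Or88a at rank 2521, had its summit 639 bp from Or88a. Cuticle protein genes had 0 of 4.

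Around the summit, GAGA letters were less frequent at divergent than at one-direction peaks. Windows reached 100 bp to each side. GAGAG, the GAGA factor's letters, occurred in 58 of 349 divergent windows (16.6%) and 257 of 677 one-direction windows (38.0%), where the share at all protein-coding gene starts was 22.5%. In the replicates the shares were 15.5%, 17.2% and 17.8% at divergent and 32.2%, 40.0% and 41.8% at one-direction peaks, without overlap. The difference was −21.2 ± 3.95 percentage points (SD, n = 3; p = 0.25 by the exact sign-flip permutation test, 0.3 adjusted). With windows of 50 bp to each side the difference in the optimal list was −11.3 points, against −21.3 with 100 bp. CAGGTAG, bound by the early activator Zelda, occurred in 1 of 349 divergent windows (0.287%), at CG5888/Idgf2, and in 23 of 677 one-direction windows (3.40%). Its share at all gene starts was 1.02%.

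The E-box that Achaete and Scute bind with Da was somewhat rarer at divergent peaks. GCAGCTG or GCAGGTG occurred in 45 of 349 divergent windows (12.9%) and 111 of 677 one-direction windows (16.4%), against 6.31% at all gene starts. In the replicates the shares were 6.74%, 12.3% and 13.7% at divergent peaks and 14.3%, 16.8% and 17.6% at one-direction peaks, a difference of −5.33 ± 1.98 points (SD, n = 3; p = 0.25 by the exact sign-flip permutation test, 0.3 adjusted). In the optimal list the difference was −3.50 points, −5.44 without replicate 2 and 0.559 when starts were sought within 1000 and 2000 bp. The share in replicate 1 was near that of all gene starts, and the 45 peaks with the E-box had a median rank of 1699 in replicate 1 and of 1489 and 1399 in replicates 2 and 3, while the 304 without it had 981, 1485 and 1511.5. Any E-box, CANNTG, occurred in 62.8% of divergent and 69.4% of one-direction windows, against 63.7% of gene starts.

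A core of this E-box reads alike on both strands and was counted once. Of the 45 peaks, 37 then had 1 Ac/Sc-Da E-box and 8 had 2, with GCAGCTG in 35 and GCAGGTG in 12. The highest-ranked of the 8 lay 373 bp from the start of the gene FBgn0010877 and 723 bp from that of Dlc90F, a dynein light chain gene, at rank 302, with 1076, 290 and 97 in the replicates. The others were CG4294/RpS16 (523), oxt/CG13807 (1059), emp/CG3829 (1365), CG5149/gudu (1428; 1888, 2390 and 1017 in the replicates), Ufl1/CG1943 (1713), homer/Liprin-alpha (2007) and exu/galla-1 (2466). The genes homer and Liprin-alpha encode synaptic scaffold proteins, and exu acts in mRNA localisation in the oocyte.

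Motifs of promoters used in all cells were more frequent at divergent than at one-direction peaks. The DRE occurred in 25 divergent windows (7.16%) and 14 one-direction windows (2.07%), a difference of 4.92 ± 1.78 points over the replicates (SD, n = 3; p = 0.25 by the exact sign-flip permutation test, 0.3 adjusted), and its share at all gene starts was 7.83%. The Motif 1 core occurred in 17 (4.87%) and 12 (1.77%), against 6.74% at gene starts, and the BEAF-32 core in 32.1% and 25.7%, against 39.3%. TATAAA also occurred more often, in 37.5% and 27.5%, against 29.2%. For these 4 motifs the sign was the same in all 3 replicates. Without ribosomal protein promoters the difference in the optimal list was 3.23 points for the DRE, against 5.10 with them, and 3.14 points for the BEAF-32 core, against 6.39. Leaving out replicate 2 brought it to 1.70 points for Motif 1, against 3.10, and to 6.535 for TATAAA, against 10.1, and leaving out replicate 3 brought Motif 1 to 1.68. In windows of 50 bp to each side the differences were 0.399 points for Motif 1, 2.26 for the DRE and 4.08 for TATAAA, and in windows of 200 bp 6.47 points for Motif 1, 10.9 for the DRE and 13.4 for the BEAF-32 core. The letters of Su(H) sites (GTGGGAA or GTGAGAA) occurred in 5.16% and 5.61%, with replicate differences of both signs. GC content of the windows had a median of 35.8% at divergent and 40.3% at one-direction peaks, and its part in the motif shares was not tested. Divergent summits also lay nearer a start, at a median of 93 bp against 158 bp, and the part of this distance was not tested either. The shares at gene starts come from windows centred on starts and not on summits.

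**Figure D5:**
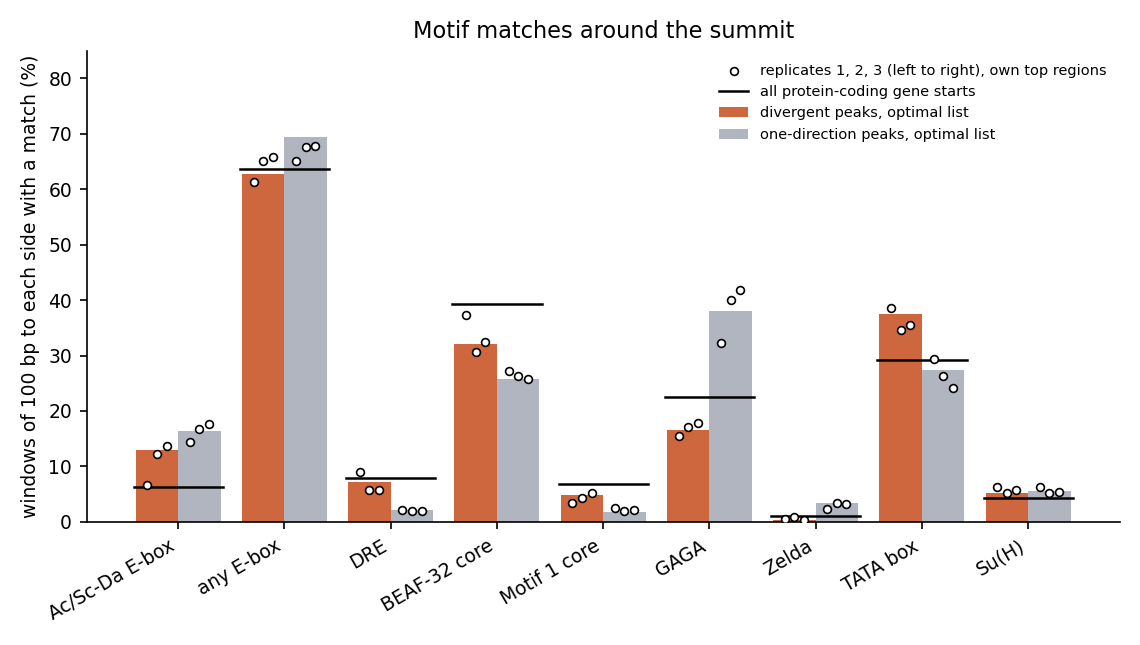
Share of windows reaching 100 bp to each side of the summit with a match, in %, at divergent peaks (left bar) and one-direction peaks (right bar) of the optimal list, with dots for the top regions of replicates 1, 2 and 3 and a black line for all protein-coding gene starts. GAGA letters were at 16.6% and 38.0%, the DRE at 7.16% and 2.07%.

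These motif shares were also set against head-to-head pairs that were not bound. In windows around the midpoint of the starts the DRE was found at 5.91% of 372 bound pairs and 8.98% of 2295 other pairs, the BEAF-32 core at 33.1% and 42.6%, and the Motif 1 core at 1.61% and 6.01%. In each replicate all 3 were rarer at bound pairs than at the others. Around 1 start per gene, the DRE was instead at 13.7% of 687 bound and 12.8% of 4365 other head-to-head genes, and the BEAF-32 core at 49.1% and 49.6%. The Motif 1 core was at 8.73% and 11.5% there. TATAAA was at 41.7% of bound and 39.5% of other pairs around the midpoint. It was higher at bound pairs in replicates 1 and 2 and lower in replicate 3. Around 1 start per gene TATAAA was at 24.9% of bound and 28.8% of other head-to-head genes. In the windows around the midpoint, GAGA letters were at 14.2% of bound and 14.6% of other pairs, and the Ac/Sc-Da E-box at 5.11% and 4.40%. At 1 start per gene, GAGA letters were at 19.7% of 687 bound and 17.3% of 4365 other head-to-head genes, against 38.5% of 571 bound and 24.3% of 8345 other genes without a head-to-head neighbour.

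The distances of the rule set where the group ends. Just inside 500 bp from the nearest start were Amun/prtp at 488 bp and CG12402/Or88a at 485 bp, and just outside were a summit at Keap1/kuk at 528 bp and one at wde/CG12935 at 532 bp. For the farther start, msn/RpL8 at 999 bp and fax/Serinc at 997 bp were just inside 1000 bp, while cnn/Golgin97 at 1003 bp and PIG-K/east at 1010 bp were just outside. Further down the list of regions from all replicates together, ranks 2757 to 5512 held 374 divergent regions among 2756, or 37.0% of promoter regions. The share was 34.2% at ranks 5513 to 8268, 33.5% at ranks 8269 to 11024 and 33.8% at ranks 11025 to 13780. A share near the 34.0% of the optimal list was thus also found below it. By another measure, 5052 of all 13968 protein-coding genes had a head-to-head neighbour within 1000 bp.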

How the data were processed

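Values came from the authors' region lists on dm6. The deposited signal values have no stated scale and served only to rank regions within a list, and the deposited −log10 q-values were checked, with a smallest value of 3.01 in the optimal list. Per the files' notes, replicate lists were made from an alignment and a control alignment, and the optimal list from those and a pooled list. The sources used here do not give the peak caller, its version or the threshold. The control alignment and the lists on dm3 were not used here.

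Summits were compared with starts of FlyBase release 6.54 on 7 chromosome arms, with Python 3.11.15, numpy 2.4.6 and scipy 1.17.1, and figures drawn with matplotlib 3.10.9. Replicates were the only samples to compare, and the labels do not tell whether they are separate collections. They were represented by their 2756 highest-ranked regions and compared by exact sign-flip permutation tests over 3 values. Scripts were tested on simulated data. Shares carry exact binomial intervals. Genes named were the 15 highest-ranked pairs, every divergent peak with a neural-list gene, up to 4 per other list, the extremes of gap, spread and distance, and peaks with 2 or more Ac/Sc-Da E-boxes; other names were chosen after their values were seen, and a few members are not reported here. Members and lists were chosen with earlier results of these data known.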

Additional observations from a re-analysis of the deposited data

How the results depend on the processing

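The 6 results were recomputed with the 1000 strongest peaks, with starts within 250 and 500 bp or within 1000 and 2000 bp, with all annotated genes, with head-to-head pairs only, with other windows, matching distances and gaps, and without each replicate; leaving out ribosomal protein promoters was added after seeing the data. Bound shares already used head-to-head pairs only. Of 149 alternative values, 137 kept their direction, or their level for values with no test. With starts within 1000 and 2000 bp, 40.3% of promoter peaks were divergent, and the Ac/Sc-Da E-box difference was 0.559 points. With windows of 200 bp the difference was 2.02 points for any E-box and 1.69 for Su(H) sites. The presence difference was −0.295 with all genes, −0.172 for counterparts within 300 bp, −0.0738 by overlap of 1 bp and −0.660 without ribosomal protein promoters. Leaving out a replicate gave rank differences of −119 to 68, presence differences of −5.30 to 5.44 and Su(H) differences of −0.585 to 0.0890. The cause was not tested. Read depth is unknown.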
